A study of Homo sapiens with 14 samples.

Results

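The receptors described here are 10 receptor tyrosine kinases taken by gene symbol from both expression tables of the series, namely MET and MST1R, the 4 ERBB receptors EGFR, ERBB2, ERBB3 and ERBB4, the fibroblast growth factor receptors FGFR1, FGFR2 and FGFR3, and RET. They are 10 of 24199 features in the DU145 table and 10 of 44591 genes in the LNCaP table. The series concerns PAX6, a transcription factor, and neuroendocrine prostate cancer, and MET is the receptor that the study placed upstream of the transcription factor STAT5A. DU145, a prostate cancer line, carried either a non-target hairpin (shCON, 3 libraries) or a hairpin against PAX6 (shPAX6, 3 libraries), in stable subclone lines made with lentivirus and puromycin. LNCaP, another prostate cancer line, was sequenced as parental cells (1 library) and as LNCaP-ENZ, a resistant line kept in 20 µM enzalutamide, a hormone-therapy drug, for 30 days per the text of the series (1 library). The methods name a pair of PAX6 hairpins, and the labels do not say which of them each shPAX6 library carries, nor that the libraries came from separate cultures, so p-values measure only the spread between these libraries. In bulk RNA, fewer cells of one kind and less RNA per cell cannot be told apart.

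Receptor tyrosine kinases cross the cell membrane once, bind a growth factor outside and phosphorylate tyrosines inside, where adaptors such as GRB2 and GAB1 connect them to the RAS-ERK, PI3K and STAT pathways. MET binds hepatocyte growth factor (HGF) and its close relative MST1R, also called RON, binds macrophage-stimulating protein. EGFR binds ligands of the EGF family, ERBB2 has no known ligand and works as a partner of the others, and ERBB3 has little kinase activity of its own and relies on such a partner. The FGFRs bind fibroblast growth factors, and RET binds GDNF-family ligands through GFRA co-receptors.

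The sequence that ties MET to PAX6 in this study is a stretch of the MET promoter amplified after chromatin immunoprecipitation. The study pulled down overexpressed PAX6 in LNCaP cells for it, not in DU145. The stretch is shown because the comparison in DU145 asks whether the MET transcript moved when PAX6 was lowered. The primers matched GRCh37 once each on chromosome 7 and bound a stretch of 250 bases on the plus strand, chr7:116311843-116312092. The stretch ends 157 bases before the annotated start of MET (chr7:116312250-116438431, plus strand) and overlaps no annotated MET exon. Capitals mark the bases covered by the forward and the reverse primer.
MET promoter amplicon: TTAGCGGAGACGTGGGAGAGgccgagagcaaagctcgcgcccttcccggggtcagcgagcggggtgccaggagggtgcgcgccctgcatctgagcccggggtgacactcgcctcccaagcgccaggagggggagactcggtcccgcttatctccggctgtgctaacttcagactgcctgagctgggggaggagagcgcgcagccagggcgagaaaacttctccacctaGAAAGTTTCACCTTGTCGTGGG
Its GC content was 65.6%, against 43.5% for the longest MET transcript. The letters TTCNNNGAA, a spacing bound by STAT factors that reads the same on both strands, were found 0 times in the stretch, and the letters GGGCGG, the GC box bound by SP1, were found 0 times on either strand. In RefSeq promoter windows of GRCh38.p14, which run from 250 bases before to 50 bases after a gene start, TTCNNNGAA occurred in 7.66% of all 35116 windows and in 0 of 14 windows of the 8 receptors that had one. GGGCGG occurred in 45.0% of all windows and in 9 of these 14, including 3 sites in the MET window and 8 in the FGFR3 window. These are letter matches only. No PAX6 site was searched for, so the counts say nothing about PAX6 binding to the stretch.

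PAX6 was lower in every shPAX6 library of DU145 than in every shCON library, though it did not pass an adjusted p of 0.05. PAX6 was at 0.839, 1.23 and 1.57 FPKM in shCON libraries 1, 2 and 3 and at 0.0153, 0.274 and 0.0778 FPKM in the shPAX6 libraries. The groups did not overlap, and the log2 fold change was -2.69 (SE 0.49, n = 3 per group), with an adjusted p of 0.054 from limma after Benjamini-Hochberg adjustment over all tested features. The size of the PAX6 change depended on the pseudocount, at -0.97 with 1 and -3.79 with 0.01 in place of 0.1. The PAX6 mean reached 0.5 FPKM, the filter for testing, only in shCON (1.21, against 0.123 in shPAX6). STAT5A, which MET signalling can activate, was at 6.39, 5.68 and 6.80 FPKM in shCON and at 1.99, 2.91 and 2.82 FPKM in shPAX6. Its log2 fold change of -1.27 (SE 0.21) passed the threshold (limma, adjusted p = 0.042). The study picked STAT5A among transcription factors that changed in its own RNA-seq of this DU145 comparison. The pass therefore repeats that choice and is no independent evidence. Folds are on the log2(FPKM + 0.1) scale and understate the changes of low genes, and the read depth of these libraries is unknown.

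The receptors of DU145 spanned a wide range of levels, and neither MET nor any other receptor passed the test in the comparison with all 6 libraries. Of the 10 receptors, 7 passed the filter of a mean of at least 0.5 FPKM and were tested. Of these 7, 0 passed an adjusted p of 0.05 (limma), against 1.20% of the 13574 features tested. At an unadjusted p under 0.05 the count was 3 receptors, ERBB2, ERBB3 and FGFR3, and 2480 features in all. FGFR3 reached the filter only through shCON (mean 0.743 FPKM, against 0.391 in shPAX6). The median log2 fold change of the 7 receptors was -0.47, beside -0.12 over all tested features. Library shPAX6 1 had the fewest features above 0 (17170, against 17926 to 18301 in the others). In the same comparison CDH1, the epithelial cadherin, fell by 2.28 on the log2 scale (limma, adjusted p = 0.033), VIM, a mesenchymal filament gene, was at 0.56 (adjusted p = 0.14), and the epithelial keratin genes KRT8 and KRT18 were at -0.28 and 0.07. EPCAM, an epithelial adhesion gene, was at 11.7, 11.6 and 11.5 FPKM in shCON and 7.08, 6.75 and 6.71 FPKM in shPAX6 (-0.75, SE 0.14; adjusted p = 0.054). Their part in the receptor values was not tested. The calls named here rest on all 6 libraries, since without shCON 1 or shCON 3 0 features passed (limma; 1617 and 1258 at an unadjusted p under 0.05).

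**Figure D1:**
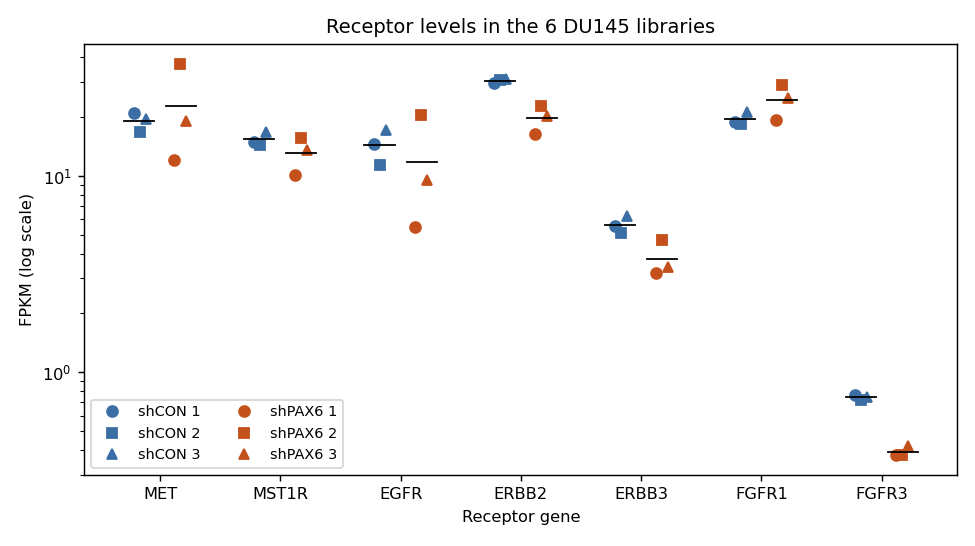
FPKM on a log axis of the 7 tested receptors in each DU145 library, with circles, squares and triangles for libraries 1, 2 and 3, blue for shCON, orange for shPAX6 and a black line at each group mean. MET and EGFR spread widely in shPAX6, from 12.1 to 37.3 and from 5.45 to 20.4 FPKM, whereas all shPAX6 libraries lay below all shCON libraries for ERBB2, ERBB3 and FGFR3.

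MET was at 20.8, 16.7 and 19.5 FPKM in the shCON libraries and at 12.1, 37.3 and 18.9 FPKM in the shPAX6 libraries. The highest and the lowest of the 6 values were both in shPAX6 libraries, and the groups overlapped. The group means were 19.0 ± 2.1 (SD, n = 3) and 22.8 ± 13.0 FPKM (SD, n = 3). The log2 fold change was 0.11 (SE 0.37, 95% interval -0.75 to 0.97; limma, adjusted p = 0.91), and the exact two-sided permutation test gave p = 0.9, where the smallest p that 3 against 3 libraries allow is 0.1. The sign depended on a single library: it came to -0.32 without shPAX6 2 (limma, adjusted p = 0.32) and to 0.49 without shPAX6 1 (adjusted p = 0.26). After a correction for GC content in each library it was 0.0025 (adjusted p = 0.998). The interval holds both lower and higher MET levels in shPAX6 cells, so no direction was detectable at this spread. With its mRNA and protein assays, the study reported less MET in DU145 after PAX6 knockdown. It reported the same in PC3, another prostate cancer line, and more MET in LNCaP and C42B cells overexpressing PAX6.

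MST1R (chr3:49924435-49941306, minus strand), the other receptor of the MET family, was at 14.9, 14.3 and 16.7 FPKM in shCON and at 10.1, 15.5 and 13.4 FPKM in shPAX6. The lowest value was again in shPAX6 1 and the groups overlapped. Its log2 fold change was -0.25 (SE 0.19, 95% interval -0.69 to 0.19; limma, adjusted p = 0.54). Antisense lncRNA genes overlap the span of MST1R, as EGFR-AS1 overlaps EGFR, PGAP3 and MIEN1 overlap ERBB2, and LETM2 overlaps FGFR1. No source used here says that counting used the strand, so reads of such partners cannot be told apart.

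Among the ERBB receptors, EGFR (chr7:55086710-55279321, plus strand) moved between libraries as MET did. It was at 14.6, 11.3 and 17.1 FPKM in shCON and at 5.45, 20.4 and 9.48 FPKM in shPAX6. As for MET, shPAX6 1 held the lowest and shPAX6 2 the highest value, and the groups overlapped. The log2 fold change of EGFR was -0.47 (SE 0.44, 95% interval -1.49 to 0.56; limma, adjusted p = 0.64), and it was -0.96 without shPAX6 2 (adjusted p = 0.062) and -0.02 without shPAX6 1 (adjusted p = 0.97).

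ERBB2 (chr17:37844167-37886679, plus strand), the partner receptor, held a narrow range in shCON, at 29.6, 30.7 and 30.9 FPKM, and was at 16.3, 22.7 and 20.1 FPKM in shPAX6. All shPAX6 libraries lay below all shCON libraries. The log2 fold change was -0.64 (SE 0.15, 95% interval -0.997 to -0.28), which is 0.642 of the shCON level, with a limma adjusted p of 0.095 and an exact permutation p of 0.1. ERBB2 did not pass with all 6 libraries, but passed without shPAX6 1 (log2 fold change -0.51, limma, adjusted p = 0.041) and without shPAX6 2 (-0.75, adjusted p = 0.031), when 6.78% and 6.65% of all features passed. Without shCON 1, shCON 2, shCON 3 or shPAX6 3 its limma adjusted p was 0.30, 0.38, 0.42 and 0.28. After the GC correction the value was -0.49 (adjusted p = 0.27).

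ERBB3 (chr12:56470583-56497289, plus strand) was at 5.52, 5.13 and 6.20 FPKM in shCON and at 3.19, 4.69 and 3.42 FPKM in shPAX6. The groups did not overlap, by a margin of less than 1 FPKM. The log2 fold change was -0.58 (SE 0.21, 95% interval -1.06 to -0.10; limma, adjusted p = 0.20). An annotated protein-coding gene on the same strand overlaps the end of ERBB3, so reads there may be split between them. ERBB4 was listed at 0 in all 6 libraries.

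FGFR1 (chr8:38257733-38326352, minus strand) was higher on average in shPAX6, though within the spread. It was at 18.7, 18.3 and 21.1 FPKM in shCON and at 19.1, 29.1 and 24.95 FPKM in shPAX6, and the groups overlapped through shPAX6 1 alone. The log2 fold change was 0.31 (SE 0.18, 95% interval -0.11 to 0.73; limma, adjusted p = 0.41). FGFR3 (chr4:1795020-1810599, plus strand) was low, at 0.766, 0.717 and 0.745 FPKM in shCON and 0.377, 0.377 and 0.419 FPKM in shPAX6. The groups did not overlap (SD 0.0244 and 0.0241 FPKM, n = 3 each), and FGFR3 reached the filter only through shCON. The log2 fold change of FGFR3 was -0.78 (SE 0.26, 95% interval -1.38 to -0.18, limma, adjusted p = 0.18). The change was -0.33 with a pseudocount of 1, which weighs on a gene at this level. FGFR2 stayed at or below 0.147 FPKM and RET at or below 0.0340 FPKM in every library, and neither was tested.

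In all, 3 of the 7 tested receptors were lower in every shPAX6 library than in every shCON library, against 20.0% of all tested features. They include FGFR3, whose mean reached 0.5 FPKM only in shCON, so its place among the tested genes depended on that group. The GC content of the longest transcript was 62.2% for FGFR3, 59.9% for MST1R, 57.5% for ERBB2, 52.6% for ERBB3, 51.3% for FGFR1, 47.8% for EGFR and 43.5% for MET. FGFR3, ERBB2 and ERBB3, which lay apart, and MST1R, which overlapped, had the highest GC contents, and FGFR1, EGFR and MET the lowest. FGFR1 lay beside ERBB3 in GC content with a change of the other sign. The part of GC content in these changes was not tested. Across 12009 features with a known GC content, log2 fold changes fell with GC content (Spearman rho -0.36). This correlation runs across genes, which are no replicates of a condition. After the GC correction the log2 fold changes of ERBB2, ERBB3 and FGFR3 were -0.49, -0.51 and -0.58, and those of EGFR, MST1R and FGFR1 were -0.50, -0.08 and 0.36.

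**Figure D2:**
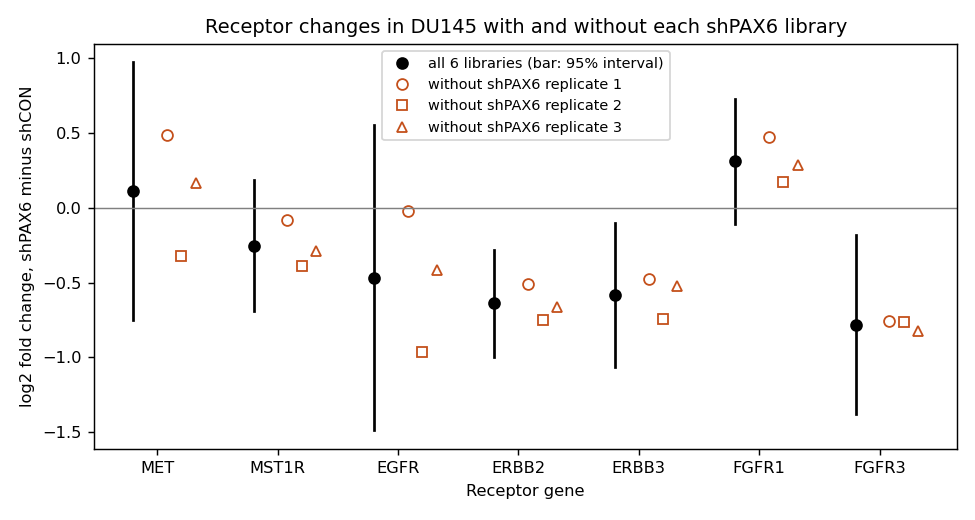
Log2 fold change of shPAX6 against shCON for the 7 tested receptors (black points, bars for 95% intervals from limma) and the same value without each shPAX6 library (open orange symbols). The MET value runs from -0.32 to 0.49 over these exclusions and crosses 0, the EGFR value runs from -0.96 to -0.02, and FGFR3 stays near -0.78.

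Low-GC features also differed between the shPAX6 libraries. For the 3003 features with a GC content of at most 41.8%, the median deviation from the feature mean was -0.41 in shPAX6 1, 0.39 in shPAX6 2 and 0.05 in shPAX6 3, and between -0.13 and 0.08 in the shCON libraries. MET, at 43.5% GC and outside that class, had its lowest level in shPAX6 1 and its highest in shPAX6 2. EGFR, at 47.8% GC and also outside that class, did the same. EGFR was low in shPAX6 3 and high in shCON 3 as well, where low-GC features were near 0. The part of GC content in the receptor values was not tested.

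**Figure D3:**
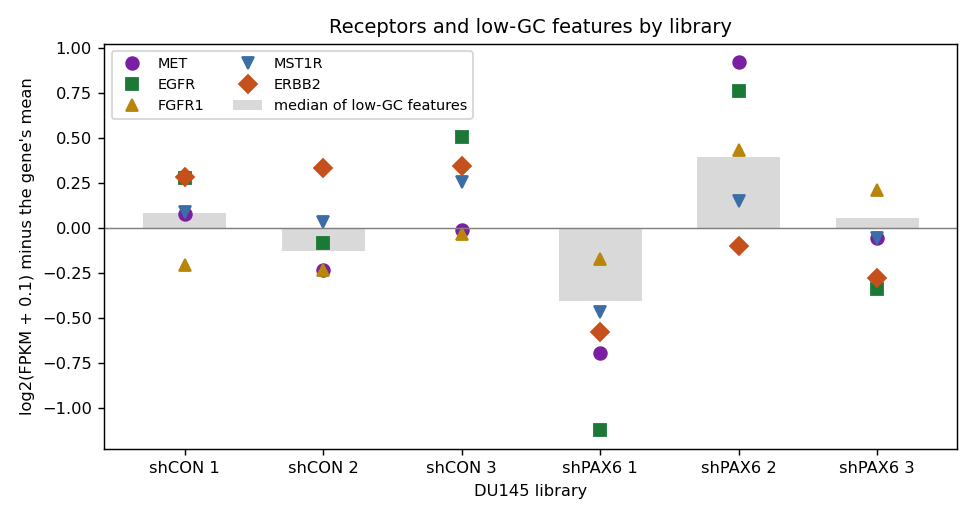
For each DU145 library, points give log2(FPKM + 0.1) of 5 receptors minus the mean of that gene over the 6 libraries, and grey bars give the median of the same quantity over features with at most 41.8% GC. MET and EGFR are lowest in shPAX6 1 and highest in shPAX6 2, where the bars stand at -0.41 and 0.39. EGFR is above its mean in shCON 3 and below its mean in shPAX6 3, and ERBB2 is below its mean in all 3 shPAX6 libraries.

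The features whose log2 level was most like that of MET over the 6 libraries were PHACTR2, NAA30, TNPO1, CCAR1 and PTPN13, with Pearson r between 0.9968 and 0.9986. PHACTR2, for example, was at 1.45, 1.14 and 1.32 FPKM in shCON and at 0.772, 2.82 and 1.24 FPKM in shPAX6. Such likeness was common, since 12.3% of tested features had an r over 0.9 with MET, and all points share library, depth and base composition. Among the receptors, r with MET was 0.86 for EGFR, 0.77 for FGFR1, 0.69 for MST1R, 0.39 for ERBB3, 0.26 for ERBB2 and -0.12 for FGFR3 (n = 6 libraries). Spearman's rho was 0.89 for EGFR and 0.49 for FGFR1. Without shPAX6 1 and shPAX6 2, the libraries farthest from the MET median, r fell to 0.50 for EGFR and 0.16 for FGFR1 over the other 4, so these relations rest on that pair of libraries. PAX6 itself had an r of 0.21 with MET.

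Ratios within a library set the receptors against each other without a library total. They were chosen after the values were seen, share genes with one another and carry no test. A trend with GC content within a library would not cancel between genes of unlike GC content. The longest transcript was at 59.9% GC for MST1R, 57.5% for ERBB2, 52.6% for ERBB3, 51.3% for FGFR1, 47.8% for EGFR and 43.5% for MET. The part of GC content in the ratios was not tested. Of the 21 pairs of tested receptors, 12 had groups that did not overlap, so lying apart was common among these pairs. The share among pairs of all tested features was not computed, so the count has no background. MET over EGFR was 1.42, 1.47 and 1.14 in shCON and 2.22, 1.82 and 2.00 in shPAX6, and the groups did not overlap although both genes overlapped on their own. ERBB2 over FGFR1 was 1.58, 1.67 and 1.47 in shCON and 0.851, 0.778 and 0.804 in shPAX6, so that ERBB2 was above FGFR1 in every shCON library and below it in every shPAX6 library. MST1R over FGFR1 likewise was 0.797, 0.782 and 0.792 in shCON and 0.527, 0.533 and 0.539 in shPAX6. ERBB2 over ERBB3 overlapped between the groups, at 4.98 to 5.98 in shCON and 4.83 to 5.88 in shPAX6.

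By FPKM, a level per gene length, the shCON order was ERBB2, FGFR1, MET, MST1R, EGFR, ERBB3, FGFR3 and FGFR2, with RET near 0 and ERBB4 at 0. FGFR1 and MET overlapped across the shCON libraries, as did MST1R and EGFR, and in neither pair was the same gene higher in every library. MET and MST1R touched in range (16.67 and 16.69 FPKM), but MET over MST1R was 1.39, 1.16 and 1.17 within the shCON libraries. ERBB2 stood above all others, and ERBB3 and FGFR3 stood below them without overlap. In shPAX6 the means ran FGFR1 (24.4 FPKM), MET (22.8), ERBB2 (19.7), MST1R (13.0), EGFR (11.8) and ERBB3 (3.77), and FGFR1, MET and ERBB2 overlapped.

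Ligands and partners of these receptors were examined in DU145 through gene lists. Of 9 ligands, activators and partners of MET and MST1R, 6 were tested and 0 passed (limma; 5 at an unadjusted p under 0.05, against 18.3% of all tested features), with a median log2 fold change of -0.87, beside -0.12 over all features. Among all tested features, 0.177% rose and 1.02% fell at an adjusted p of 0.05, the shares against which the list counts stand. HGF, the MET ligand, was listed at 0 in all 6 libraries. ST14, the protease matriptase that activates the HGF precursor, was at 1.32, 2.15 and 2.34 FPKM in shCON and 0.505, 0.640 and 0.526 FPKM in shPAX6 (log2 fold change -1.60, SE 0.29; limma, adjusted p = 0.054). MST1, the MST1R ligand, had a log2 fold change of -1.24 (SE 0.27; adjusted p = 0.077), and it has near-identical copies in the genome that could share its reads. Its mean reached 0.5 FPKM only in shCON (0.880, against 0.317 in shPAX6). The other members with groups apart were SPINT1 and SPINT2, inhibitors of HGF-activating proteases, and PLXNB1, a plexin that pairs with MET, at -0.72, -0.46 and -1.01. They were named after their values were seen. CD44, a MET co-receptor in some cells, was at 0.26 (limma, adjusted p = 0.64). The longest transcript of CD44 had 44.3% GC. Those of ST14, MST1, SPINT1, SPINT2 and PLXNB1 had 62.1%, 60.5%, 60.4%, 55.6% and 62.3% GC. The part of GC content in the changes of this list was not tested.

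Of 13 ERBB ligands and sheddases, 10 were tested and 1 rose. HBEGF, a heparin-binding ligand of EGFR and ERBB4, was at 12.7, 11.8 and 12.9 FPKM in shCON and at 22.3, 27.9 and 28.3 FPKM in shPAX6. All shPAX6 libraries lay above all shCON libraries, and the log2 fold change was 1.05 (SE 0.15; limma, adjusted p = 0.028). NRG1, a ligand of ERBB3 and ERBB4, was low, at 0.464, 0.279 and 0.245 FPKM in shCON and 0.990, 0.996 and 1.80 FPKM in shPAX6 (1.65, SE 0.35; adjusted p = 0.074). Its mean reached 0.5 FPKM only in shPAX6 (1.26, against 0.329 in shCON). The sheddases ADAM17 and ADAM10, which release such ligands, were at -0.55 and -0.08 with groups that overlapped. The list's median log2 fold change was 0.04, beside -0.12 over all features.

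Of 13 FGF ligands and binding proteins, 3 were tested. FGFBP1, which releases FGFs from the matrix, was at 6.36, 5.31 and 4.63 FPKM in shCON and 2.17, 2.33 and 2.64 FPKM in shPAX6 and fell by 1.15 on the log2 scale (SE 0.20; limma, adjusted p = 0.046). FGFRL1, an FGF receptor without a kinase domain, was at -1.10 (adjusted p = 0.098), and FGF2 at 0.01. Of 9 RET ligands and co-receptors, 3 were tested and 0 passed (limma; 1 at an unadjusted p under 0.05), with ARTN at -1.20 (adjusted p = 0.21). The mean of ARTN reached 0.5 FPKM only in shCON (1.08, against 0.463 in shPAX6).

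Of 14 receptor adaptors, 14 were tested and 1 fell, with a list median of -0.34. GRB7, an adaptor of ERBB2 whose gene lies near that of ERBB2, was at 6.70, 6.96 and 7.77 FPKM in shCON and 3.72, 2.27 and 2.47 FPKM in shPAX6 (-1.34, SE 0.23; limma, adjusted p = 0.043). PLCG1, a phospholipase that binds activated receptors, was at -0.82 (adjusted p = 0.081). Of 19 feedback inhibitors, 19 were tested and 1 fell, with a list median of -0.31. CBLC, a ubiquitin ligase of the CBL family that marks activated receptors for degradation, was at 4.43, 5.00 and 5.20 FPKM in shCON and 1.70, 1.61 and 1.81 FPKM in shPAX6 (-1.46, SE 0.18; adjusted p = 0.022).

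Of 8 ERK-responsive genes, 7 were tested and 1 fell, with a list median of 0.32. EGR1, an early transcription factor, was at 22.3, 17.9 and 19.4 FPKM in shCON and 4.56, 9.92 and 6.25 FPKM in shPAX6 (-1.58, SE 0.28; limma, adjusted p = 0.048). The cyclin gene CCND1 and the AP-1 gene FOSL1 lay on the other side of 0, at 0.72 (adjusted p = 0.092) and 0.40 (adjusted p = 0.18). Of 34 further receptor tyrosine kinases, 14 were tested and 1 fell, with a list median of -0.48. PTK7, a pseudokinase receptor of Wnt signalling, was at 13.3, 12.9 and 16.3 FPKM in shCON and 4.47, 6.23 and 5.68 FPKM in shPAX6 (-1.36, SE 0.19; adjusted p = 0.026), and INSR, the insulin receptor, was at -1.04 (adjusted p = 0.11). The calls of HBEGF, FGFBP1, GRB7, CBLC, EGR1 and PTK7 each ended when any single shCON library or shPAX6 3 was left out, with limma adjusted p-values up to 0.22, 0.28, 0.30, 0.22, 0.29 and 0.22 in that order, while all 6 kept their direction. Processing choices ended calls too. All 6 were lost with the replicate number as a block (limma, adjusted p from 0.17 to 0.27). HBEGF was lost on TPM (limma, adjusted p = 0.085). EGR1 was lost after the GC correction (limma, adjusted p = 0.087), without the filter (0.076) and on TPM (0.087), and PTK7 after the GC correction (0.061) and on TPM (0.060). FGFBP1 was lost with quantile normalization (0.068) and median centring (0.077), and GRB7 with the same choices (0.10 and 0.12). Without the filter both FGFBP1 and GRB7 were lost (limma, adjusted p = 0.067 each), and FGFBP1 was also lost on TPM (0.076). Over 17 alternatives the call held in 10 for HBEGF, 7 for FGFBP1, 8 for GRB7, 11 for CBLC, 6 for EGR1 and 9 for PTK7.

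**Figure D4:**
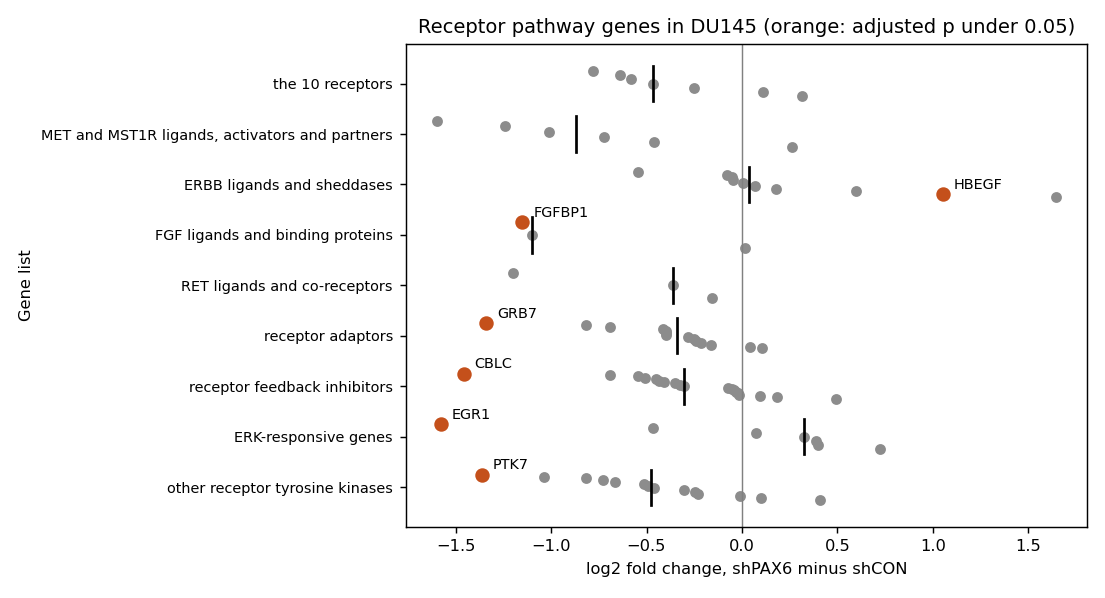
Log2 fold change of shPAX6 against shCON for every tested gene of the receptors and of 8 pathway lists (1 point per gene, black line at the list median, orange with a name where the limma adjusted p was under 0.05). HBEGF is the called gene to the right of 0, and FGFBP1, GRB7, CBLC, EGR1 and PTK7 lie to the left.

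In LNCaP the receptors were counted in 1 parental library (20468001 counts) and 1 LNCaP-ENZ library (17945722 counts), so differences have no replicate check and no test was made. Each log2 ratio of CPM (counts scaled by the library total, + 0.1) carries a 95% exact Clopper-Pearson interval that covers counting error only. PAX6 had 11 parental and 4 LNCaP-ENZ counts, and STAT5A 6 and 1, too few to give either a direction. KLK3, a marker of prostate luminal cells, had 1817 and 1186 counts, whereas in DU145 it was at or below 0.058 FPKM. Of the endothelial markers, VWF had 345 and 27 counts, PECAM1 3 and 3, and CDH5 0 in both, and their part in the receptor values was not tested. Over the 14767 genes that reached a mean of 1 CPM, the log2 ratio had a median of -0.15, and each receptor above the floor is also given with that median set to 0.

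Of the 10 receptors, 8 reached a mean CPM of 1, and 2 of these, FGFR2 and FGFR3, were at least 2-fold lower in LNCaP-ENZ, against 9.57% of all genes at that level (11.4% in either direction). Their median log2 ratio was -0.24. MET had 295 counts in the parental and 235 in the LNCaP-ENZ library, or 14.4 CPM (95% interval 12.8 to 16.2) and 13.1 CPM (11.5 to 14.9). The intervals overlapped, and the log2 ratio was -0.14 (-0.39 to 0.11), which is 0.02 with the median of all genes set to 0. MST1R rested on 4 and 16 counts, with a log2 ratio of 1.75 (0.56 to 4.23), or 1.90 with the median set to 0, and it was below the filter.

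EGFR was the abundant receptor that differed. It had 5599 and 2727 counts, or 274 CPM (266 to 281) and 152 CPM (146 to 158), a log2 ratio of -0.85 (-0.91 to -0.78), and -0.69 with the median of all genes set to 0. ERBB2 had 4825 and 4202 counts (log2 ratio -0.01, -0.07 to 0.05) and ERBB3 4774 and 4006 (-0.06, -0.12 to -0.002), and with the median set to 0 they were at 0.14 and 0.09, so the sign of both depended on the scaling. By TPM, a level per length, EGFR was 0.806 of ERBB2 in parental cells and 0.451 in LNCaP-ENZ cells, whereas ERBB2 over ERBB3 was 1.14 and 1.18. ERBB4 had 0 counts in both libraries, where the floor of 3 counts corresponds to 0.147 CPM in the parental and 0.167 CPM in the LNCaP-ENZ library.

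The FGF receptors were all lower by count. FGFR1 had 443 and 311 counts (log2 ratio -0.32, -0.53 to -0.11), FGFR2 106 and 34 (-1.40, -2.05 to -0.88) and FGFR3 73 and 23 (-1.41, -2.22 to -0.78). FGFR2 and FGFR3 stayed at least 2-fold lower under each scaling tried. RET had 22 and 17 counts (-0.17, -1.19 to 0.80), and the difference was within counting error. With the median of all genes set to 0, FGFR1 was at -0.16, FGFR2 at -1.25, FGFR3 at -1.25 and RET at -0.01.

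**Figure D5:**
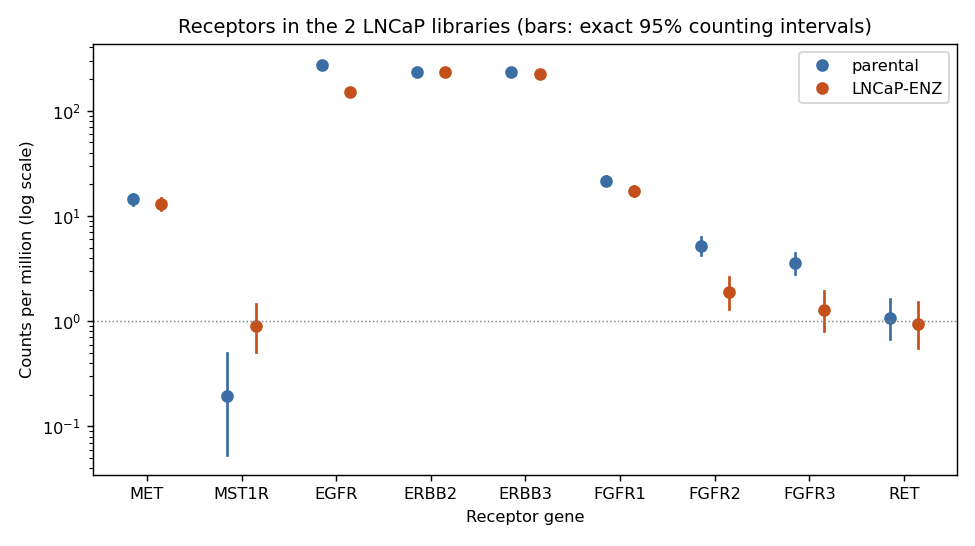
CPM on a log axis for 9 receptors in the parental (blue) and LNCaP-ENZ (orange) library, with bars for exact 95% counting intervals (smaller than the points for abundant genes) and a dotted line at 1 CPM. EGFR stands apart between the libraries at 274 and 152 CPM, as do FGFR1, FGFR2 and FGFR3, all lower in LNCaP-ENZ. MST1R, on 4 and 16 counts, is also apart and higher in LNCaP-ENZ, whereas the intervals of MET, ERBB2, ERBB3 and RET overlap.

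By TPM the LNCaP order was ERBB2 (44.8 in parental, 41.9 in LNCaP-ENZ), ERBB3 (39.3 and 35.5), EGFR (36.1 and 18.9), FGFR1 (3.58 and 2.70) and MET (2.20 and 1.88), with FGFR2, FGFR3, RET and MST1R below 1. MET thus ranked 5 of 10 in LNCaP. In the separately normalized DU145 table MET ranked 3 in shCON and MST1R, which was near the floor in LNCaP, ranked 4. No test compares the tables.

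Of all genes at a mean CPM of 1 in LNCaP, 1.84% were at least 2-fold higher and 9.57% at least 2-fold lower in LNCaP-ENZ, the shares against which the list counts stand. Of the MET and MST1R list, 1 of 7 genes at a mean CPM of 1 was at least 2-fold lower, namely HGF, with 123 and 30 counts (log2 ratio -1.79, -2.47 to -1.26). HPN, the protease hepsin, had 2274 and 1436 (-0.47). Of 5 ERBB ligands and sheddases, HBEGF was 2-fold higher (78 and 157 counts, 1.18, 0.80 to 1.61) and ADAM10 2-fold lower (1785 and 694 counts, -1.17, -1.30 to -1.05). TGFA, an EGFR ligand, was at 0.97 and EGF at -0.87. Of 14 adaptors, 1 was 2-fold lower, GAB2 (498 and 154 counts, -1.49). In the FGF list 0 of 3 and in the RET list 0 of 3 reached 2-fold.

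Of 18 feedback inhibitors in LNCaP, 2 were 2-fold higher and 1 lower. DUSP5, an ERK phosphatase, had 310 and 1635 counts (log2 ratio 2.58, 2.41 to 2.77) and SPRY4, a Sprouty inhibitor of receptor signalling, 18 and 70 (2.03, 1.39 to 2.98). ERRFI1, which binds and inhibits EGFR, had 617 and 261 (-1.05). Of 7 ERK-responsive genes, 1 was 2-fold higher and 3 lower, led by EGR1 (301 and 792 counts, 1.58) and PHLDA1 (414 and 74 counts, -2.27). Of 19 further receptor tyrosine kinases, 0 were 2-fold higher and 5 lower, led by DDR2, a collagen receptor (86 and 14 counts, -2.29), and IGF1R, the IGF1 receptor (2830 and 530 counts, -2.22, -2.36 to -2.09). The list medians lay between -0.55 and -0.03, beside -0.15 over all genes at this level.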

How the data were processed

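RNA-seq tables of 8 libraries were analysed, and the 6 ATAC-seq samples were not analysed here. Per the methods, the authors aligned reads to GRCh37 with HISAT2, quantified them with StringTie and tested with DESeq2. The submitters' processing notes name HISAT2 and STAR, and kit and read length differ between labels and methods. The methods state 3 replicates per line where the labels give 1 LNCaP library per arm. For LNCaP the authors deposited raw counts and TPM (count over length, rescaled). For DU145 the deposited values, whose header gives no unit, were treated as FPKM, and 752 low genes showed no shared step (largest bin 2.39%), so no reads were recovered and the depth is unknown.

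DU145 was fitted with limma 3.58.1 (trend, two-sided, Benjamini-Hochberg, threshold 0.05) on log2(FPKM + 0.1), over the 13574 features whose mean reached 0.5 FPKM, on all 6 libraries with no block. LNCaP counts were divided by library totals, with edgeR 4.0.16 TMM factors as an alternative. Transcript GC and positions come from GENCODE lifted to GRCh37, and the GC correction is a loess fit (span 0.5, degree 2) per library. GC content was known for 88.5% of tested features. Primers were taken from the study's supplement, and promoter windows from RefSeq. The members and lists were chosen with earlier results of these data known. Named genes are the receptors, PAX6, STAT5A, up to 2 of the largest changes in each direction per list and comparison, and the 5 features most like MET. HGF, marker genes and, where stated, further list members were named in addition, after values were seen. Alternatives covered pseudocounts, filters, scaling, GC, the replicate block and each library left out. The limma test and the LNCaP intervals were tested on simulated data. Some results are not reported here.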

Additional observations from a re-analysis of the deposited data

How the results depend on the processing

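In DU145, 163 features passed with limma. The count was 108 without a filter, 100 with median centring (28 higher and 72 lower, against 24 and 139 in the reported fit and 67 and 159 with quantile normalization) and 84 on TPM, and 0 to 920 when one library was left out. It was 920 without shPAX6 1, 903 without shPAX6 2, 10 without shPAX6 3, 5 without shCON 2 and 0 without shCON 1 or shCON 3. The number of receptors called was 0 to 1 over these exclusions, and the MET log2 fold change -0.32 to 0.49, reversed (-0.32) without shPAX6 2. Same-numbered libraries had correlations of -0.17, -0.37 and 0.05 in their deviations from the group mean, and other pairs ranged from -0.195 to 0.366. Deviations within a group of 3 are tied to each other, so this check cannot show whether same-numbered libraries share a batch. With the replicate number as a block 0 features passed, and 3 with the block and the GC correction. The cause of these differences was not tested. In LNCaP, ERBB3 reversed to 0.083 with TMM factors and to 0.091 with the median set to 0. FGFR2 and FGFR3 remained the receptors past 2-fold under each scaling, and MST1R joined them at a mean CPM of at least 0.5. Counts of 4 to 34 limit MST1R, RET, FGFR2 and FGFR3, and the unknown depth limits FGFR2, FGFR3 and RET in DU145.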
